A study of Mus musculus with 12 samples.

Results

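Cytochrome P450 genes (*Cyp*) and UDP-glycosyltransferase genes (*Ugt*) were followed in whole mouse embryos at E12.5. A symbol was taken when it consisted of Cyp with a family, subfamily and member number, or of Ugt with a family, a subfamily and an optional number, which 109 of the 23420 listed genes fulfilled. Of these, 32 reached a mean of 0.5 counts per 1000000 counts of the library (CPM) over the 6 libraries of at least one line and are described here. All 32 reached this level in the *Carm1* line and 28 in the *Pax3* line. Genes with other forms of symbol, such as *Cyp51*, the sterol demethylase of cholesterol synthesis, were not members.

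The study asked how loss of *Carm1*, which encodes an arginine methyltransferase, and loss of *Pax3*, a neural crest and muscle transcription factor, change the embryonic transcriptome. In the *Carm1* line (strain C57BL/6), 3 Carm1 null embryos (Carm1 KO/KO, allele tm1Mtb, a deletion of exons 2 and 3) were compared with 3 wild types. In the *Pax3* line (strain given as mixed), 3 Pax3 null embryos (Pax3 Sp2H/Sp2H, the splotch mutation, kept in a closed colony) were compared with 3 wild types. Both lines were bred by crossing heterozygotes, and each library held the polyadenylated RNA of 1 whole embryo.

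Cytochromes P450 are heme enzymes that insert oxygen into small hydrophobic molecules, using electrons from the reductase encoded by *Por* or, in mitochondria, from ferredoxin. Some have narrow roles, such as the removal of retinoic acid by the Cyp26 enzymes or the synthesis of bile acids and steroids, while others oxidise fatty acids or foreign compounds. UDP-glycosyltransferases attach a sugar to such molecules, which makes them more soluble. Many drug-metabolising members are genes of the adult liver, whereas the Cyp26 enzymes shape retinoic acid gradients in the embryo.

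Libraries held 17183344 to 23518692 counts. *Carm1* had 1237 to 1299 counts in Carm1 null libraries and 2542 to 3384 in their wild types, and counts per gene do not show which exons they came from. *Pax3* was at 22.4, 22.0 and 18.1 CPM in Pax3 null libraries and at 30.9, 24.9 and 28.3 CPM in their wild types, without overlap (log2 fold change -0.43, FDR adjusted *P* = 0.0014), and gene counts cannot show the Sp2H mutation itself. The markers of the whole embryo, *Afp*, *Tnnt2*, *Myog*, *Tubb3* and *Col2a1*, were all detected. Summed counts of 4 Y-linked genes were 4447 to 6118 in *Carm1* line wild type 3, in Pax3 null 3 and in *Pax3* line wild types 2 and 3 and at most 23 elsewhere, and a fit with a term for this was run as an alternative. In bulk RNA of whole embryos, fewer cells of a type and less RNA per cell cannot be told apart.

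The bases just before the RefSeq start (GRCm38.p6) are shown for 4 members: *Cyp26a1*, which stands for the retinoic acid hydroxylases, and *Ugt2b34*, *Ugt2b35* and *Cyp2c68*, which had some of the largest differences in the *Carm1* line. Capitals mark the AGTTCA pair of *Cyp26a1*, read as TGAACT on the printed strand, and the HNF4 letters CAAAGTCCA of *Cyp2c68*. No capitals stand in the *Ugt2b34* and *Ugt2b35* stretches, as these letters were not in them. Positions are chr19:37697658-37697807 on the plus strand for *Cyp26a1*, chr5:86906938-86907087 on the minus strand for *Ugt2b34*, chr5:87000710-87000859 on the plus strand for *Ugt2b35* and chr19:39741102-39741251 on the minus strand for *Cyp2c68*.
Cyp26a1: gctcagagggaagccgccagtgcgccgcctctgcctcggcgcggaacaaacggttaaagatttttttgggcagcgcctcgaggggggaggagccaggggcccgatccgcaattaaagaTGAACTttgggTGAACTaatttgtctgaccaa
Ugt2b34: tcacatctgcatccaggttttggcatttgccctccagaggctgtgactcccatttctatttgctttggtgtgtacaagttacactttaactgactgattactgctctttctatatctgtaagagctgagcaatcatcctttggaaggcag
Ugt2b35: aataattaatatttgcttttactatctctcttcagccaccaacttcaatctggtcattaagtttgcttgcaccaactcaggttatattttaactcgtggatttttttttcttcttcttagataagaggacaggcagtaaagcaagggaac
Cyp2c68: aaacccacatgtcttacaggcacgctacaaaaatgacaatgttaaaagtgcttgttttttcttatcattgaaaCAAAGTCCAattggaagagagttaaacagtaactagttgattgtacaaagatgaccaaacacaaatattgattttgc

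Of the 32 members, 25 had a RefSeq promoter entry, and 250 bases before each start were searched on both strands for 10 motifs. AGTTCA, a form of the nuclear receptor site, stood in 11.8% of all 32851 windows and in 4 member windows. The same letters in 2 copies on 1 strand with 5 bases between them, the form of a retinoic acid response element, stood in 7 of all windows (0.0213%) and in 1 member window, that of *Cyp26a1*, between 32 and 16 bases before the start. The 2 longer nuclear receptor patterns, AGGTCA followed by AGTTCA with 5 bases between and AGGTCA repeated with 1 base between, were in 0 and 11 of all windows and in no member window. CAAAGTCCA was in 0.384% of all windows and, among members, in that of *Cyp2c68* between 77 and 69 bases before the start. The HNF1 motif, in 0.371% of windows, was in no member window. The TATA box TATAAA was found in 3 member windows (12.4% of all windows), the nuclear receptor site AGGTCA in 2 (14.0%), the xenobiotic response core GCGTG in 9 (28.2%) and the CEBP letters TTGCNNAA in 2 (9.56%). These matches describe letters only, and AGTTCA stands within the longer pattern of *Cyp26a1*. In GENCODE (GRCm38) the protein-coding genes themselves lie at chr19:37697798-37701536 (*Cyp26a1*), chr5:86889767-86906937 (*Ugt2b34*), chr5:87000860-87013275 (*Ugt2b35*), chr19:39688834-39741054 (*Cyp2c68*), chr17:32924688-32947402 (*Cyp4f13*), chr1:74713574-74737892 (*Cyp27a1*) and chr4:96516138-96553661 (*Cyp2j6*), and none of these shares exonic bases with another annotated gene.

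Levels were compared between members per kilobase of exon. In wild types of both lines *Cyp26b1*, a retinoic acid hydroxylase, ranked first, with 14.4 ± 1.15 CPM per kb (SD, n = 3) in the *Carm1* line and 14.4 ± 0.570 in the *Pax3* line. *Cyp20a1*, an orphan P450 of unknown substrate, was second with 9.24 ± 0.367 and 9.95 ± 0.488. *Cyp4f16* and *Cyp39a1*, an oxysterol hydroxylase, took the next places with 6.93 ± 0.421 and 4.94 ± 0.559 in the *Carm1* line and 5.87 ± 0.790 and 6.02 ± 0.170 in the *Pax3* line, so that their order differed between lines and, in the *Pax3* line, lay within the spread. *Cyp4f17* and *Cyp1b1*, an enzyme that oxidises estrogens and aromatic hydrocarbons, had 3.76 ± 0.314 and 3.22 ± 0.0277 in the *Carm1* line. The lowest member in wild types of that line was at 0.235 ± 0.0101 CPM per kb.

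Most symbols of the name family had few or no counts at this stage. Of the 77 symbols that were not members, 18 had no count in any of the 12 libraries and 37 had between 1 and 9 counts in all. Just inside the level rule stood *Cyp2c44*, *Cyp2d26* and *Cyp4f18*, with a highest line mean of 0.546, 0.626 and 0.684 CPM. Just outside stood *Cyp2j13*, *Cyp11a1* and *Ugt2a1*, with 0.497, 0.474 and 0.449 CPM. *Cyp11a1*, which starts steroid synthesis, *Cyp17a1* and *Cyp21a1* were below the rule, although their partner *Star*, the cholesterol carrier of steroidogenic cells, was at 11.1 ± 1.38 CPM in *Carm1* line wild types. Of 10 genes of steroidogenic adrenal and gonad cells, 6 were tested in the *Carm1* line and 7 in the *Pax3* line, and none was called in either by edgeR or by DESeq2. At an unadjusted *P* under 0.05 in edgeR there were 0 in the *Carm1* line and 2 in the *Pax3* line.

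In the *Carm1* line, edgeR's quasi-likelihood test called 1 member higher and 7 lower in nulls among the 31 tested. Over all 15811 genes tested, 5.49% were called higher and 7.83% lower. The lower members were *Ugt2b34*, *Ugt2b35*, *Cyp2c68*, *Cyp2d10*, *Cyp2d26*, *Cyp4f13* and *Cyp4f16*, and the higher one was *Cyp27a1*. Of these, *Cyp2d10* and *Cyp2d26* met the level rule only through the wild types of this line. Their means were 0.320 and 0.265 CPM in nulls and 1.22 and 0.983 CPM in wild types. Their place in the count of lower members is therefore not independent of the rule. The median log2 fold change of members was -0.21, beside 0.00 over all genes, and the groups' libraries did not overlap in 2 members that were higher and 9 that were lower, beside 30.0% of all genes tested. Summed over the members, nulls held 219 to 233 CPM and wild types 252 to 259 CPM.

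**Figure D1:**
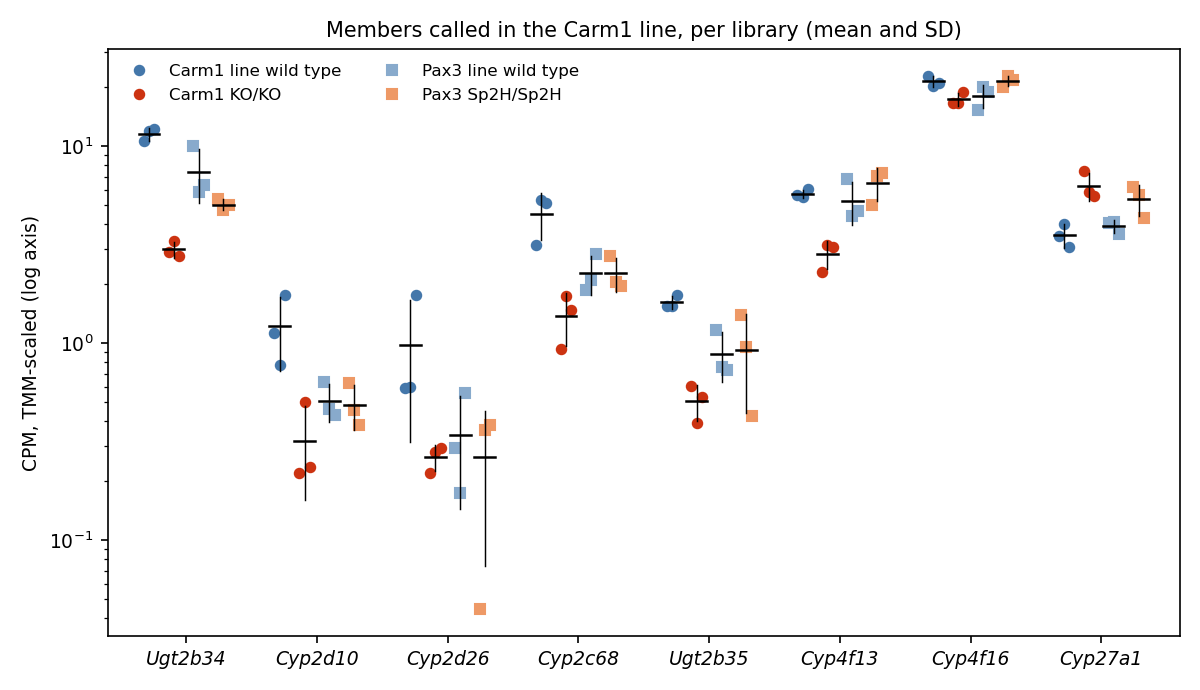
Level in each library, as CPM on a log axis, of the 8 members called in the *Carm1* line, in the 4 groups of 3 embryos. Horizontal bars are means and vertical bars SD. *Ugt2b34* of Carm1 nulls lies at 2.77 to 3.30 CPM, under the 10.5 to 12.2 CPM of their wild types, while the Pax3 groups lie between.

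Of the 3 glycosyltransferases, 2 fell. *Ugt2b34* and *Ugt2b35*, both on chromosome 5, belong to the family that conjugates steroids and bile acids with glucuronic acid. *Ugt2b34* was at 2.91, 3.30 and 2.77 CPM in nulls and at 10.5, 11.9 and 12.2 CPM in wild types. The level was 3.85-fold lower in nulls, with the smallest adjusted *P* of the members (log2 fold change -1.95, SE 0.14, FDR adjusted *P* = 1e-11). *Ugt2b35* was at 0.603, 0.392 and 0.530 CPM in nulls and at 1.54, 1.55 and 1.75 CPM in wild types. Its groups did not overlap either (log2 fold change -1.65, SE 0.35, FDR adjusted *P* = 0.0014), at 7 to 11 counts per null library. *Ugt8a*, the galactosyltransferase of myelin lipids, named here after its values were seen, showed 3.27 ± 0.850 CPM in nulls and 3.17 ± 0.541 in wild types.

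Among 9 members of xenobiotic and orphan families, 3 fell, but *Cyp2d10* and *Cyp2d26* were members only through their high *Carm1* line wild types. *Cyp2c68*, of the subfamily that oxidises drugs and arachidonic acid, was at 0.932, 1.74 and 1.47 CPM in nulls and at 3.14, 5.33 and 5.16 CPM in wild types. The groups were apart by 3.33-fold (log2 fold change -1.74, SE 0.25, FDR adjusted *P* = 6e-06). Of the 150-base stretches of its transcript, 8.83% were found in any other annotated gene. The largest share was in *Cyp2c40*, which had 0 counts in all 12 libraries. *Cyp2d10* and *Cyp2d26* lie in a cluster of drug-metabolising genes on chromosome 15. *Cyp2d10* was at 0.219, 0.504 and 0.236 CPM in nulls and at 1.13, 0.773 and 1.75 CPM in wild types (log2 fold change -1.90, SE 0.46, FDR adjusted *P* = 0.0043). Of its stretches, 6.40% were found in any other gene, the largest share in *Cyp2d11*, while 3.64% of its exonic bases overlap *Gm27331*. *Cyp2d26* was at 0.219, 0.280 and 0.294 CPM in nulls and at 0.593, 0.601 and 1.75 CPM in wild types (log2 fold change -1.88, SE 0.52, FDR adjusted *P* = 0.013).

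The wild type with the highest level of both *Cyp2d* genes was the same library, number 3, which was also the only library of the *Carm1* line with more than 5 Y-linked counts. Without it, the log2 fold change of *Cyp2d10* was -1.52 (FDR adjusted *P* = 0.047) and that of *Cyp2d26* -1.16 (FDR adjusted *P* = 0.22), the latter no longer past the threshold. The adult liver genes *Cyp2e1* and *Cyp2d9*, chosen here after their values were seen and not members, had 41 and 14 counts in this library and at most 2 in every other. The part of this library in the *Cyp2d* results was not tested beyond its removal. The call of *Cyp2d26* was also lost without null 1 (adjusted *P* = 0.080), without null 2 (adjusted *P* = 0.059) and with the term for Y-linked libraries (adjusted *P* = 0.18), and over all alternatives its adjusted *P* lay between 0.0041 and 0.22, that of *Cyp2d10* between 0.00092 and 0.047.

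In the fatty acid families, 2 of the 10 members tested fell. The *Cyp4f* genes, of which 4 members lie on chromosome 17, hydroxylate the end of fatty acids and leukotrienes. *Cyp4f13* was at 2.30, 3.13 and 3.06 CPM in nulls and at 5.63, 5.54 and 6.04 CPM in wild types. This 2.03-fold lower level (log2 fold change -1.02, SE 0.18, FDR adjusted *P* = 0.00013) left a wide gap between the groups. *Cyp4f16* was at 16.5, 16.6 and 18.7 CPM in nulls and at 22.7, 20.2 and 20.9 CPM in wild types. Here the groups came close (log2 fold change -0.30, SE 0.09, FDR adjusted *P* = 0.017), and the call was lost without null 1 (adjusted *P* = 0.097), without null 2 (adjusted *P* = 0.094), without wild type 1 (adjusted *P* = 0.060) and with DESeq2 (adjusted *P* = 0.066), within a range of 0.011 to 0.097 over the alternatives. Of its stretches, 2.77% were found in any other gene, the largest share in *Cyp4f37*. Their neighbour *Cyp4f17* had 11.1 ± 1.52 CPM in nulls and 12.04 ± 1.005 in wild types (adjusted *P* = 0.58), and *Cyp2j6*, an epoxygenase of arachidonic acid, 10.3 ± 1.29 and 10.7 ± 0.721 (adjusted *P* = 0.82).

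**Figure D2:**
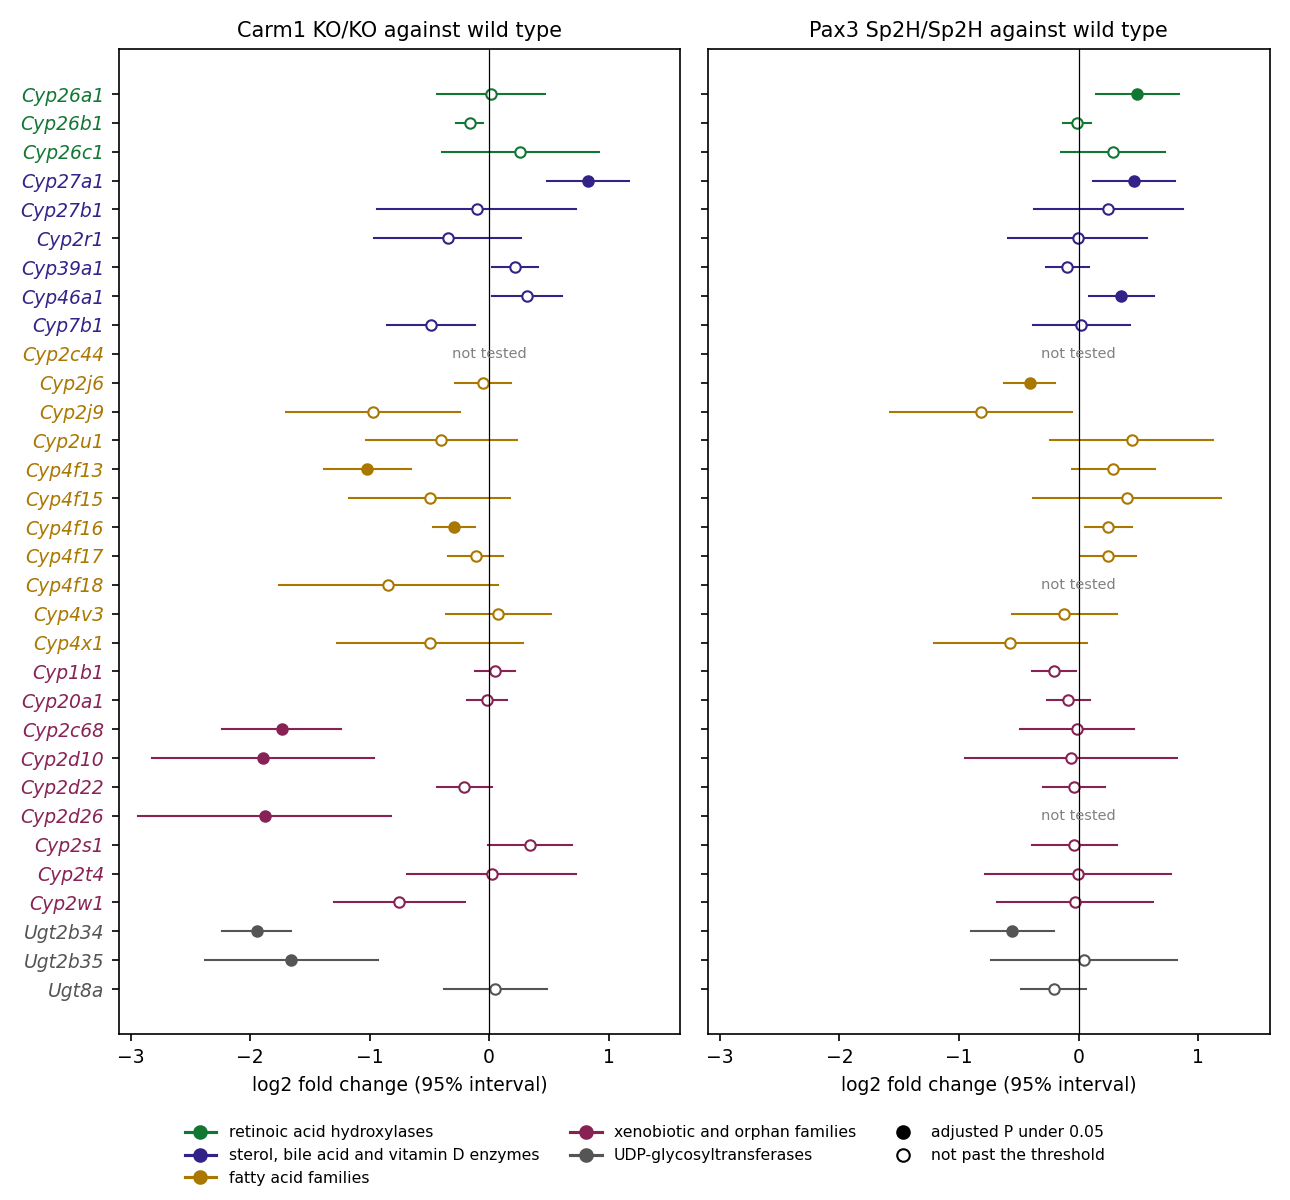
Log2 fold change, null over wild type, with its 95% interval, of the 31 members tested in the *Carm1* line (left) and the 29 tested in the *Pax3* line (right), by role, with the others marked as not tested; filled points passed an adjusted *P* of 0.05. Filled points lie mostly on the lower side in the *Carm1* line, down to -1.95 for *Ugt2b34*, and within 0.56 of zero in the *Pax3* line.

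The 6 sterol, bile acid and vitamin D enzymes held the only member that rose. *Cyp27a1*, the mitochondrial sterol 27-hydroxylase of bile acid synthesis, was at 7.46, 5.82 and 5.59 CPM in nulls and at 3.50, 4.04 and 3.07 CPM in wild types. The lowest null lay above the highest wild type, and the level was 1.77-fold higher (log2 fold change 0.83, SE 0.17, FDR adjusted *P* = 0.00088). *Cyp46a1*, the cholesterol 24-hydroxylase of neurons, had 8.16 ± 1.79 CPM in nulls and 6.54 ± 0.377 in wild types (adjusted *P* = 0.16), and passed the threshold without null 2 (adjusted *P* = 0.034, in a range of 0.034 to 0.58). *Cyp39a1* had 17.6 ± 0.613 and 15.1 ± 1.71 CPM (adjusted *P* = 0.13).

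None of the 3 retinoic acid hydroxylases was called in the *Carm1* line by edgeR or by DESeq2, and 1 of them, *Cyp26b1*, had an unadjusted edgeR *P* under 0.05. *Cyp26b1* was at 64.8, 72.0 and 69.3 CPM in nulls and at 83.7, 76.0 and 71.5 CPM in wild types, with overlap between the groups. Its log2 fold change of -0.16 (SE 0.06) missed the threshold narrowly (FDR adjusted *P* = 0.052), and passed it with no filter on low counts (adjusted *P* = 0.025), without wild type 3 (0.0064) or with a term for Y-linked libraries (0.0069), in a range of 0.0064 to 0.28. *Cyp26a1* had 3.14 ± 0.826 CPM in nulls and 3.10 ± 0.746 in wild types, and *Cyp26c1* 1.25 ± 0.262 and 1.03 ± 0.0349 (adjusted *P* = 0.98 and 0.66). *Cyp1b1*, *Cyp20a1* and *Cyp2d22*, the other abundant members, had log2 fold changes of 0.05, -0.02 and -0.21 (adjusted *P* = 0.77, 0.92 and 0.25).

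Markers of hepatocytes moved in the *Carm1* line together with the lower members. Of 14 such genes, 11 fell, none rose and all 14 had negative log2 fold changes, with a median of -1.03. The summed level was 910 to 1106 CPM in nulls and 1659 to 2017 CPM in wild types. The defining genes *Alb* and *Afp* had log2 fold changes of -1.41 and -0.66 (adjusted *P* = 0.0079 and 2.2e-07), and no marker of the list was at 0. All 7 erythroid markers fell as well, with a median of -0.55 and summed levels of 654 to 739 CPM in nulls and 928 to 1064 CPM in wild types. Of the 5 markers of the whole embryo, *Afp*, which is also in the hepatocyte list, *Tnnt2* of heart muscle and *Myog* of skeletal muscle fell. *Tnnt2* and *Myog* had log2 fold changes of -0.51 and -0.26 (adjusted *P* = 1.5e-08 and 0.00081), and the summed level of the 5 was 1627 to 1657 CPM in nulls and 1870.5 to 2088 CPM in wild types. The part of these lists in the members' differences was not tested.

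Per 1000 CPM of summed hepatocyte markers, *Ugt2b34* was at 3.20, 2.99 and 2.57 CPM in nulls and at 5.87, 7.15 and 6.04 CPM in wild types. *Cyp2c68* was at 1.02, 1.57 and 1.37 beside 1.75, 3.21 and 2.56, and *Cyp4f13* at 2.53, 2.83 and 2.85 beside 3.13, 3.34 and 2.99. In these ratios nulls lay below wild types without overlap for all 3, but for *Cyp4f13* the groups were close, with means of 2.74 ± 0.179 and 3.16 ± 0.174 (SD, n = 3). *Ugt2b35*, *Cyp2d10* and *Cyp2d26* were likewise lower, although the highest null of *Cyp2d10*, at 0.456, lay just under the lowest wild type, at 0.466. For *Cyp4f16* the ratio was higher in nulls, at 15.0 to 18.1 beside 10.4 to 12.6. It was also higher without overlap for *Cyp27a1*, *Cyp2j6* and *Cyp46a1*, with means of 6.22, 10.02 and 8.07 in nulls and 1.97, 5.87 and 3.60 in wild types. The marker sum was 910 to 1106 CPM in nulls and 1659 to 2017 CPM in wild types. A member of unchanged CPM is therefore higher in nulls in this ratio. In CPM, *Cyp2j6* and *Cyp46a1* were not called by edgeR (adjusted *P* = 0.82 and 0.16), and *Cyp4f16* was lower in nulls. These ratios are descriptions without a test. The largest part of the marker sum was *Afp*, with a mean of 476 CPM in nulls and 751 CPM in wild types. Its log2 fold change of -0.66 was smaller in size than the -1.41 of *Alb* and the list median of -1.03. The ratios therefore depend on the markers summed, and ratios to single markers are not given.

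**Figure D3:**
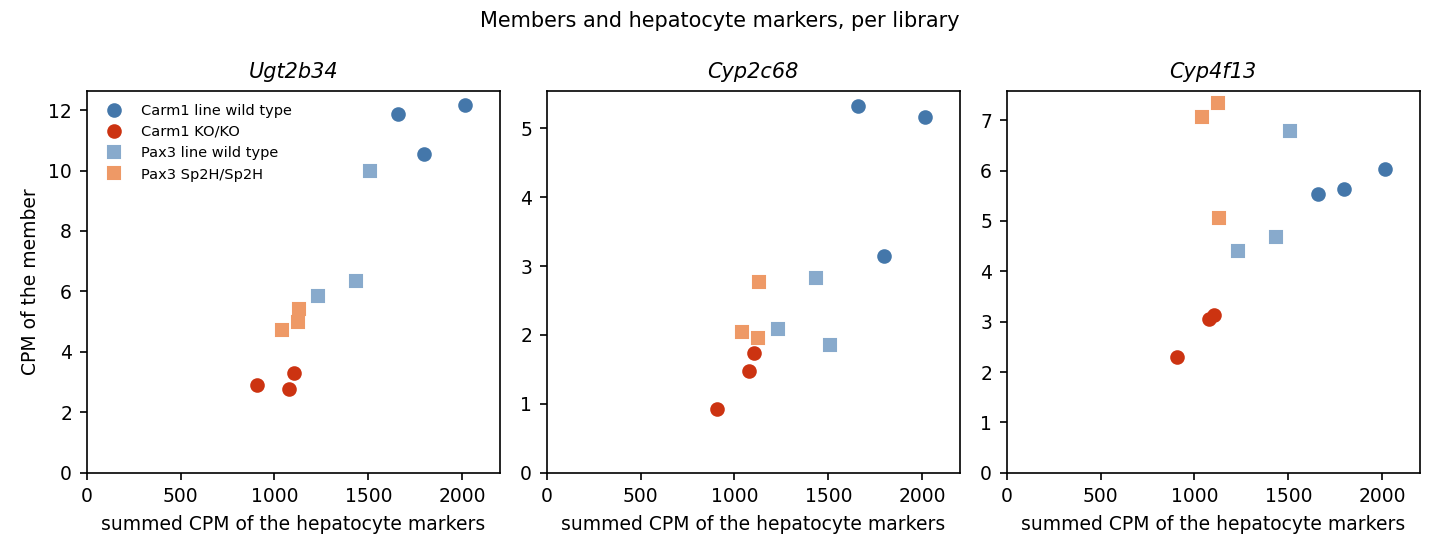
CPM of *Ugt2b34*, *Cyp2c68* and *Cyp4f13* in each of the 12 libraries against the summed CPM of 14 hepatocyte markers. Carm1 nulls lie at 910 to 1106 CPM of markers and lowest in *Ugt2b34*, and Pax3 nulls at 1041 to 1128 CPM of markers, with more *Ugt2b34* at a like marker level. The lines differ in strain and were scaled separately, and this contrast between their nulls was not tested.

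Genes that work with these enzymes were taken from 4 lists, whose counts in the *Carm1* line stand beside 5.49% of all genes called higher and 7.83% called lower. *Por*, the electron donor, was at 77.5 ± 2.89 CPM in nulls and 75.3 ± 3.85 in wild types (adjusted *P* = 0.65), and of the 11 electron donors and suppliers of cosubstrate only *Slc35d1*, a carrier of nucleotide sugars into the endoplasmic reticulum, was called, with a log2 fold change of -0.26 (adjusted *P* = 0.024, and 0.091 with DESeq2). Of 10 nuclear receptors and xenosensors tested, *Hnf4a* and *Nr5a2*, both expressed in liver, fell by 1.30 and 0.71 on the log2 scale (adjusted *P* = 2.1e-06 and 0.011). Of 13 other conjugating enzymes and transporters tested, 4 fell and none rose, with *Gsta3*, a glutathione transferase, at -2.61 and *Abcc2*, an exporter of conjugates into bile, at -1.29. *Nqo1* and *Gstm1* completed these with -0.65 and -0.33. Of 16 retinoid pathway genes tested, *Crabp1* and *Crabp2*, which bind retinoic acid in the cell, and *Stra6*, the retinol importer, rose by 0.28, 0.28 and 0.23, while *Rbp4*, the retinol carrier secreted by liver, fell by 0.86 on the log2 scale.

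In the *Pax3* line, 3 members were called higher and 2 lower among the 29 tested. Over all 15724 genes tested, 14.0% were called higher and 10.5% lower, so that the members' counts were no larger than the background in either direction. With each library left out in turn, 1 to 5 members were called. The higher members were *Cyp26a1*, *Cyp27a1* and *Cyp46a1*, and the lower ones *Cyp2j6* and *Ugt2b34*. The median log2 fold change was -0.01, beside 0.00 over all genes, and the groups' libraries did not overlap in 5 members that were higher and 3 that were lower, beside 39.6% of all genes. The summed level of the members was 241 to 250 CPM in nulls and 239 to 252 CPM in wild types.

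**Figure D4:**
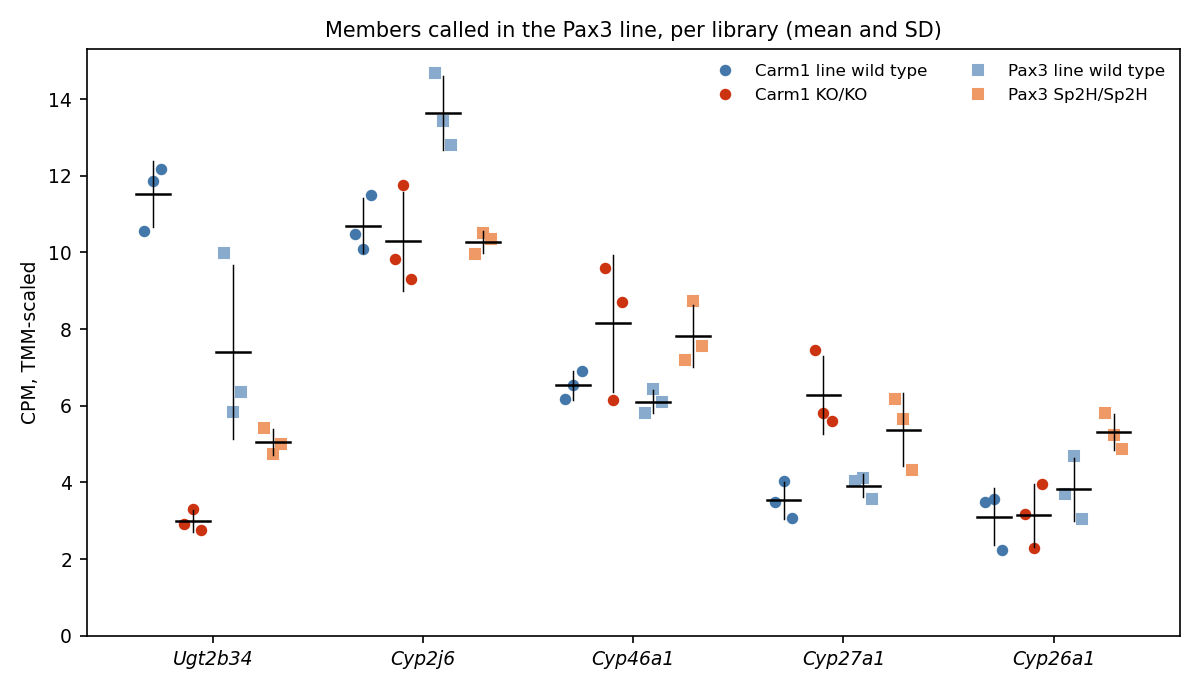
Level in each library, as CPM on a linear axis, of the 5 members called in the *Pax3* line, in the 4 groups of 3 embryos. Horizontal bars are means and vertical bars SD. *Cyp2j6* of Pax3 nulls lies at 9.96 to 10.5 CPM, under the 12.8 to 14.7 CPM of their wild types.

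*Cyp2j6* was at 9.96, 10.5 and 10.3 CPM in Pax3 nulls and at 14.7, 13.4 and 12.8 CPM in wild types. The nulls lay close together and below every wild type (log2 fold change -0.41, SE 0.10, FDR adjusted *P* = 0.0053), and this call held in all 12 alternatives. *Ugt2b34* was at 5.41, 4.73 and 5.004 CPM in nulls and at 9.998, 5.85 and 6.35 CPM in wild types, with wild type 1 far above the others. Its log2 fold change was -0.56 (SE 0.17, FDR adjusted *P* = 0.018), and without wild type 1 it was -0.28 (adjusted *P* = 0.23). The call was also lost without null 2 (adjusted *P* = 0.078) and without null 3 (adjusted *P* = 0.068), in a range of 0.0018 to 0.23. In the same line 3 of the 14 hepatocyte markers fell and 1 rose, with summed levels of 1041 to 1128 CPM in nulls and 1231 to 1507 CPM in wild types, highest in wild type 1. Per 1000 CPM of these markers *Ugt2b34* was at 4.44 to 4.79 in nulls and 4.43 to 6.63 in wild types, which overlap. In the same ratio *Cyp2j6* was at 8.83, 10.1 and 9.19 in nulls and at 9.74, 10.9 and 8.93 in wild types, so that its groups overlap as well. These ratios too were not tested and depend on the markers summed. Of 7 erythroid markers, 2 rose, 1 of them, *Rhd*, not with DESeq2 (adjusted *P* = 0.096), and none fell, with summed levels of 521 to 668 CPM in nulls and 556 to 798 CPM in wild types. Of the 5 whole embryo markers, *Afp* and *Myog* fell by 0.38 and 1.09 on the log2 scale and *Tnnt2* rose by 0.26, with summed levels of 1601 to 1690.4 CPM in nulls and 1715 to 1747 CPM in wild types.

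The 3 members called higher in Pax3 nulls belong to retinoic acid and sterol metabolism. *Cyp26a1* was at 5.81, 5.23 and 4.88 CPM in nulls and at 3.71, 4.69 and 3.05 CPM in wild types (log2 fold change 0.49, SE 0.17, FDR adjusted *P* = 0.034). *Cyp27a1* was at 6.17, 5.64 and 4.33 CPM in nulls and at 4.05, 4.11 and 3.56 CPM in wild types (log2 fold change 0.46, SE 0.17, FDR adjusted *P* = 0.041). *Cyp46a1* was at 7.19, 8.74 and 7.55 CPM in nulls and at 5.80, 6.43 and 6.10 CPM in wild types (log2 fold change 0.36, SE 0.13, FDR adjusted *P* = 0.046). In each of the 3, every null library exceeded every wild type, but the calls were lost in 8, 7 and 8 of 12 alternatives, DESeq2 and the term for Y-linked libraries among them. Over the alternatives the adjusted *P* lay between 0.011 and 0.17 for *Cyp26a1*, between 0.020 and 0.21 for *Cyp27a1* and between 0.040 and 0.21 for *Cyp46a1*. The calls of *Cyp26a1* and *Cyp46a1* were lost when any null, wild type 1 or wild type 3 was left out, and that of *Cyp27a1* when null 1, null 2 or any wild type was left out. *Cyp27a1* lies 3.36 Mb from *Pax3* on chromosome 1.

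The other retinoic acid hydroxylases were not called in the *Pax3* line. *Cyp26b1* had 76.5 ± 3.75 CPM in nulls and 77.2 ± 3.05 in wild types (log2 fold change -0.01, 95% interval -0.13 to 0.11). *Cyp26c1*, the neighbour of *Cyp26a1* on chromosome 19, was at 2.73, 2.87 and 2.37 CPM in nulls and at 2.24, 1.97 and 2.28 CPM in wild types (log2 fold change 0.29, SE 0.21, adjusted *P* = 0.34). The retinoid pathway list had 5 genes that rose and none that fell of 17 tested, beside 14.0% and 10.5% of all genes, with summed levels of 984 to 996 CPM in nulls and 830 to 909 CPM in wild types. These were *Crabp1*, *Crabp2*, *Rarg*, *Rbp4* and *Rxrb*, with log2 fold changes of 0.25, 0.32, 0.20, 0.42 and 0.46.

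Among the partners, *Por* was at 89.3 ± 0.938 CPM in Pax3 nulls and 84.7 ± 4.30 in wild types (adjusted *P* = 0.34). *Fdx1*, the ferredoxin that feeds mitochondrial P450 enzymes such as that of *Cyp27a1*, rose by 0.49 on the log2 scale (adjusted *P* = 0.0016) and was the only gene called of the 11 in its list. Of 11 receptors tested, *Nr1h2*, an oxysterol receptor, rose by 0.27 and *Ahr*, the sensor of aromatic hydrocarbons, fell by 0.36. Of 12 other conjugating enzymes and transporters, *Gsta4*, *Gstm5* and *Gstp1* rose by 0.30, 0.27 and 0.17, and *Gstm1* fell by 0.28. The counts called in these lists stand beside 14.0% of all genes called higher and 10.5% called lower in this line. The call of *Gstp1* was lost with DESeq2 (adjusted *P* = 0.071).

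The difference between the effects of both nulls was tested as an interaction over all 12 libraries, and 6 of the 32 members were called, beside 19.1% of 16292 genes, a share like that of the members. All 6 were lower in the *Carm1* line relative to the *Pax3* line. *Cyp4f13* had a log2 fold change of -1.02 in the *Carm1* line and 0.29 in the *Pax3* line, a difference of -1.30 (SE 0.25, FDR adjusted *P* = 0.00036). In the *Pax3* line alone this member had an adjusted *P* of 0.22, and of 0.044 without wild type 1. *Cyp4f16* likewise had values of opposite sign, -0.30 and 0.25. Its *Pax3* line value missed the threshold (adjusted *P* = 0.059), and the lowest null, at 19.973 CPM, barely exceeded the highest wild type, at 19.9705 CPM. This value passed the threshold with no filter on low counts (0.036), with the replicate block (0.035), without wild type 2 (0.027) and with the term for Y-linked libraries (0.019), in a range of 0.019 to 0.30. *Ugt2b34* was lower in nulls of both lines, by different amounts. *Cyp27a1*, higher in nulls of both lines, had a difference of 0.37 with a 95% interval of -0.11 to 0.86 (adjusted *P* = 0.29). For *Cyp26a1* the difference was -0.47, with an interval of -1.04 to 0.11 (adjusted *P* = 0.27).

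Some members had unlike levels in the wild types of the lines, which differ in strain, and strain and line cannot be told apart here. *Cyp4f18*, a leukotriene hydroxylase of blood cells, had 10, 20 and 24 counts in *Carm1* line wild types and 0 in each *Pax3* line wild type, where a count of 0 allows up to 3 counts, or 0.129 to 0.172 CPM. Its Carm1 nulls had 3, 12 and 11 counts and its Pax3 nulls 4, 3 and 0. It was tested in the *Carm1* line (adjusted *P* = 0.23) but not in the *Pax3* line alone. In the fit of all 12 libraries the interaction, the null effect in the *Carm1* line minus that in the *Pax3* line, missed the threshold narrowly (adjusted *P* = 0.050). Its *Pax3* side rests on wild types with 0 counts. No test of wild-type levels between the lines is given here. *Cyp2c44* had 1 to 26 counts per library and passed the filter in neither line. *Cyp26c1* was at 1.01 to 1.07 CPM in *Carm1* line wild types and 1.97 to 2.28 CPM in those of the *Pax3* line, and *Cyp2d22* at 10.3 to 11.4 and 6.93 to 7.18 CPM. *Cyp2j13*, just outside the rule, had at most 1 count in any *Carm1* line library and 5 to 15 in those of the *Pax3* line.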

How the data were processed

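RNA of 12 whole E12.5 embryos was read as 150-base pairs. Per the labels and the study's methods, the authors aligned reads to mm10 with STAR and counted them per gene with featureCounts, and the deposited values are raw counts without normalization or pooling. Tool versions, strand setting and treatment of multiply aligned reads are not given in the sources used here, so genes with near-identical or overlapping neighbours are uncertain.

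Members and gene lists were chosen with earlier results of these data known. Each line was tested alone with edgeR 4.0.16 (R 4.3.3): quasi-likelihood test with robust dispersions, TMM, filterByExpr, Benjamini-Hochberg adjustment over all genes tested, threshold 0.05. CPM in the text are TMM-scaled; those of the 0.5 CPM rule and of the limit for a count of 0 are counts over library totals. The difference between lines was an interaction in 1 fit of all 12 libraries. The test was checked on simulated data. The exact permutation test of 3 against 3 cannot go below 0.1. The libraries came from separate embryos, and replicates of no group agreed within sampling noise.

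Named are members called in any comparison, the 10 with the highest mean CPM, the Cyp26 genes, 3 symbols on each side of the rule, called genes of the lists, and *Por*; exceptions are stated. Exon lengths and positions come from GENCODE M21 (GRCm38), which matched all 32 members, 1 of them through a synonym. Alternatives were RLE factors, DESeq2 1.42.0, no filter, a replicate block, leaving out each library, a Y-linked term, 1 fit of all 12 libraries and TMM-scaled CPM for the level rule, which kept 32 members. All per-sample columns were used.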

Additional observations from a re-analysis of the deposited data

Results flagged for a closer look

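The log2 fold changes of 6 of the 32 members differed between the lines by the interaction test of edgeR, given as the effect in the *Carm1* line minus that in the *Pax3* line. Over all genes tested 19.1% were called in this way, so that the count is near the background and is no result about the members as a group. The difference was -1.38 for *Ugt2b34* (adjusted *P* = 6.8e-05), -1.30 for *Cyp4f13* (adjusted *P* = 0.00036), -1.71 for *Cyp2c68* (adjusted *P* = 0.00079) and -0.54 for *Cyp4f16* (adjusted *P* = 0.0048), and these 4 calls held in all 14 alternatives. It was -1.69 for *Ugt2b35* (adjusted *P* = 0.024), a call lost in 3 of the 14 alternatives. For *Cyp2d10*, which met the level rule only through its *Carm1* line wild types, it was -1.82 (adjusted *P* = 0.045), lost in 10 of the 14. The hepatocyte markers had a median log2 fold change of -1.03 in the *Carm1* line and -0.25 in the *Pax3* line. In the *Pax3* line *Ugt2b34* was at -0.56. *Cyp2c68*, *Cyp2d10*, *Ugt2b35*, *Cyp4f16* and *Cyp4f13* were at -0.02, -0.06, 0.05, 0.25 and 0.29 there. The part of the markers in the differences between lines was not tested.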

How the results depend on the processing

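With each library left out in turn, the members called were 6 to 10 in the *Carm1* line, 1 to 5 in the *Pax3* line and 4 to 7 for the difference, and all genes called were 1224 to 2290 in the *Carm1* line and 2454 to 4103 in the *Pax3* line. In the *Pax3* line 1 member was called without null 2, 2 without null 1 or null 3 and 3 without wild type 1 or 3. Without wild type 1 these were *Cyp2j6* and, newly called, *Cyp4f13* (adjusted *P* = 0.044) and *Cyp4f17* (adjusted *P* = 0.041). Without wild type 3 they were *Cyp2j6*, *Ugt2b34* and, newly called, *Cyp1b1* (adjusted *P* = 0.047). All genes called were 1224 without Carm1 null 1, 1381 without Carm1 null 2, 1349 without *Carm1* line wild type 2, 2565 without Pax3 null 1 and 2454 without Pax3 null 3. In the *Pax3* line 2 members were called with DESeq2, 3 with a term for Y-linked libraries and 3 in 1 fit of all 12 libraries, against 5. With the replicate block 8 and 6 members and 1787 and 4177 genes were called, and the only member call it changed was that of *Cyp4f16*, gained in the *Pax3* line. The replicate numbers were not shown to pair embryos, since same-numbered deviations correlated between -0.062 and -0.00066 in the *Carm1* line and between -0.080 and 0.27 in the *Pax3* line, and not every library correlated best with its own number.

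Members far from a call in a line changed sign in that line, although some were called in the other. In the *Carm1* line, leaving out libraries gave log2 fold changes of -0.074 to 0.039 for *Cyp20a1*, -0.18 to 0.20 for *Cyp26a1* and -0.16 to 0.013 for *Cyp2j6*, and the Y-linked term gave -0.17 for *Cyp26a1* and 0.0032 for *Cyp2j6*. In the *Pax3* line the ranges were -0.047 to 0.026 for *Cyp26b1*, -0.19 to 0.20 for *Cyp2c68*, -0.28 to 0.13 for *Cyp2d10* and -0.37 to 0.40 for *Ugt2b35*, and the Y-linked term gave 0.0011 for *Cyp2c68* and -0.29 for *Ugt2b35*. The causes were not tested. Within the line of its call, no called member changed sign in any alternative. Members below 1 CPM rested on few counts, 4 to 9 per null library for *Cyp2d10* and 4 to 5 for *Cyp2d26*.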
